A study of Mus musculus with 8 samples.

Results

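Transcripts of 10 genes of the hypoxia-inducible factor (HIF) pathway were compared between BMPR2 DELX and ROSA mouse cells. The genes are the HIF alpha subunits Hif1a and Epas1, the prolyl hydroxylases Egln1, Egln2 and Egln3, and the HIF targets Adm, Ankrd37, Bnip3, Car9 and Ndrg1. They were taken by name from the 49671 genes in the files, and all 10 passed the filter on low counts. Polyadenylated RNA was sequenced from 8 samples whose source is labelled adipocytes, with 4 samples of BMPR2 DELX mutant mice and 4 of ROSA mice, which served as control. BMPR2 is a receptor for bone morphogenetic proteins. The labels name no other allele, strain, age, promoter or agent for either group, and leave unstated whether each sample was a separate animal, so p-values measure only the spread between these samples, which may be technical.

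When oxygen is available, the prolyl hydroxylases modify HIF alpha subunits, which the VHL ubiquitin ligase then marks for destruction. When oxygen is low, alpha subunits persist, pair with ARNT and switch on genes for glycolysis, blood vessel growth, pH control and mitochondrial turnover. Alpha subunits are controlled mainly as proteins, so their RNA does not report their activity. Egln3 and Egln1 are themselves HIF targets, a negative feedback on the pathway.

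HIF dimers bind a short core, ACGTG or GCGTG, in hypoxia response elements. The cores were sought on both strands in the 250 bases before the RefSeq start (GRCm38.p6). Promoters were found for 8 of the 10 genes, and all 9 windows (Egln2 has more than 1 start) held at least 1 match. Among 32851 promoters of the same length, 38.6% held a match, and among 13680 promoters of tested genes, 54.7% did. A match is a description of the letters, not of binding. The stretches below are shown because Egln3 and Ankrd37 were lower in BMPR2 DELX, Adm was lower without passing the test, and Bnip3, which held the most matches (5), was not lower. Cores on either strand are in capitals, so CACGC and CACGT are cores read from the opposite strand. Cores can overlap, as in CACGTG and CACGCGTG. All 4 stretches lie outside exons annotated in GENCODE M21.
Egln3, chr12:54203875-54204124, minus strand, 250 to 1 bases before the start: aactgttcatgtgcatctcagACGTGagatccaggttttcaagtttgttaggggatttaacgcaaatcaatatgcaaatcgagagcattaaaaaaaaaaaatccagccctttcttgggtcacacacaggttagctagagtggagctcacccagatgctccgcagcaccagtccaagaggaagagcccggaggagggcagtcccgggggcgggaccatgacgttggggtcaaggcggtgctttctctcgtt
Ankrd37, chr8:45999868-46000100, minus strand, 250 to 18 bases before the start: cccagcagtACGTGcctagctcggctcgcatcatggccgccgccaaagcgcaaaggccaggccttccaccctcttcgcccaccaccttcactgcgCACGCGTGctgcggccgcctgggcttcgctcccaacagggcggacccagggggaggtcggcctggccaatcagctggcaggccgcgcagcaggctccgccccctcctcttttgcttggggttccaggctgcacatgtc
Adm, chr7:110627547-110627626, plus strand, 110 to 31 bases before the start: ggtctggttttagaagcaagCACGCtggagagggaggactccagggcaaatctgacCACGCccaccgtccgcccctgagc
Bnip3, chr7:138909527-138909646, minus strand, 140 to 21 bases before the start: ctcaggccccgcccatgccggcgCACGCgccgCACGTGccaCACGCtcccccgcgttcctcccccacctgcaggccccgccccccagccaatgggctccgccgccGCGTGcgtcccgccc
Egln3 held 1 match, 229 to 225 bases before its start. Adm held 2, both GCGTG on the opposite strand. Ankrd37 held 4, of which the one 6 to 2 bases before the RefSeq start falls in an annotated exon and is not shown. Matches were counted at 5 in Bnip3, 4 and 1 in the windows of Egln2, 3 in Hif1a, 2 in Egln1 and 1 in Car9.

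Each library held 28799445 to 43684785 counts in genes. Levels are counts per 1000000 scaled by the trimmed mean of M values (TMM-scaled CPM), given as mean ± SD of 4 libraries. A difference is the log2 of BMPR2 DELX over ROSA ± its standard error (SE), tested by quasi-likelihood in edgeR. P-values were adjusted by Benjamini-Hochberg over 14887 genes, and a gene was called at an adjusted p below 0.05. Bmpr2 had 199 to 237 CPM in BMPR2 DELX against 183 to 216 in ROSA (0.10 ± 0.08, edgeR adjusted p 0.47); exons were not counted one by one. Adipocyte markers were largely missing, with 7 of 12 at 3 counts or fewer in every library (Lep, Plin1, Cidec, Cfd and others), while Lpl, Fabp4 and Pparg were present. A set of 12 fibroblast and contractile markers summed to 28906 to 35608 CPM in BMPR2 DELX against 30114 to 35531 in ROSA. In samples of many cells, fewer cells of a type and less RNA per cell cannot be told apart.

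Of the 10 HIF pathway genes, Egln3 and Ankrd37 were lower in BMPR2 DELX and none (0) was higher, with 8 not passing. Among all genes tested, 5.15% were called lower, 3.96% higher and 9.10% in either direction. At an unadjusted p below 0.05, 4 members were lower and none (0) higher, where 13.4% of all genes were lower and 12.9% higher. DESeq2 and limma voom each called 3 lower and 0 higher, where they called 14.3% and 11.0% of all genes in either direction. Every BMPR2 DELX library lay below every ROSA library for 3 members, Egln1, Egln3 and Ankrd37, and for none (0) the other way, where 9.65% and 8.32% of all genes were separated so. The median log2 fold change of the members was -0.03, against 0.005 over all genes. The members were chosen with earlier results of these data known, so the shares over all genes serve as description only.

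**Figure D1:**
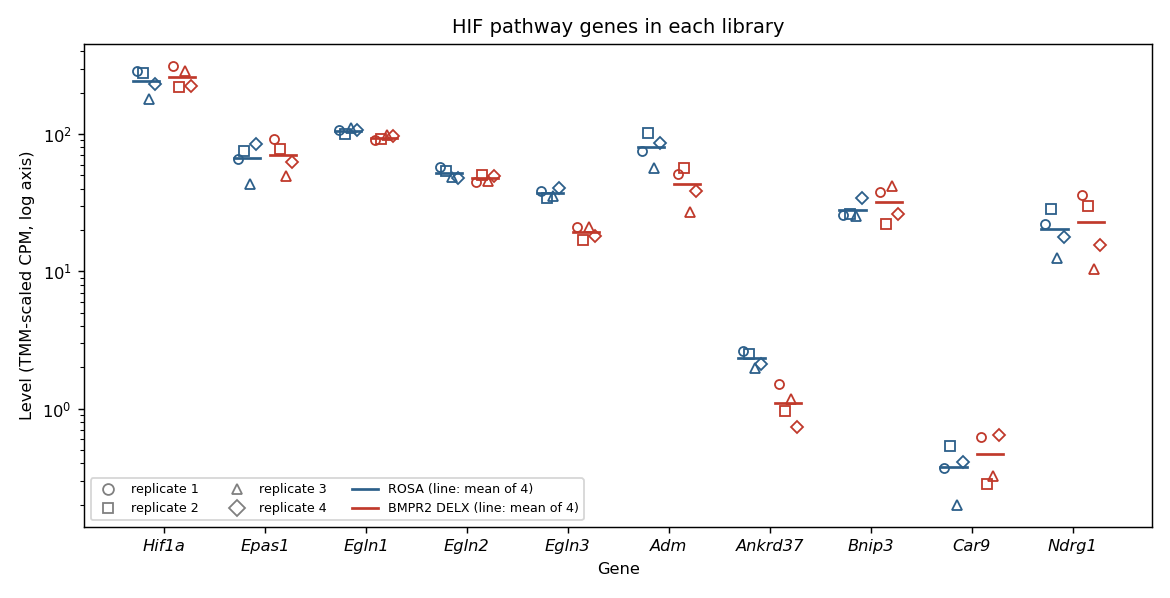
Level of each gene in each library (TMM-scaled CPM, log axis), with ROSA in blue and BMPR2 DELX in red, marker shapes for replicate numbers and a line at the mean of 4 libraries. Egln3 separates the groups, at 17.0 to 21.2 CPM in BMPR2 DELX against 34.2 to 40.6 CPM in ROSA, while Hif1a and Epas1 overlap.

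Neither alpha subunit passed the test between the groups. Hif1a (ENSMUSG00000021109, GRCm38 chromosome 12, 73901375 to 73947530), the broadly expressed alpha subunit, had 313, 219, 287 and 226 CPM in BMPR2 DELX 1 to 4. It had 288, 277, 180 and 231 CPM in ROSA 1 to 4. The groups overlapped, with the lowest library in ROSA and the highest in BMPR2 DELX, and the difference was 0.10 ± 0.17 (edgeR adjusted p 0.75). Epas1 (ENSMUSG00000024140, chromosome 17, 86753700 to 86833410), the alpha subunit abundant in endothelial cells, had 92.7, 78.0, 49.6 and 62.8 CPM in BMPR2 DELX 1 to 4. In ROSA 1 to 4 it had 65.3, 75.8, 43.1 and 84.4 CPM. Its groups also overlapped, and both had their lowest value in the library numbered 3 (0.07 ± 0.24, edgeR adjusted p 0.88).

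Per kilobase of annotated exon, Hif1a stood at 44.3 ± 7.87 CPM in BMPR2 DELX against 41.4 ± 8.38 in ROSA. Epas1 stood at 12.7 ± 3.34 and 12.0 ± 3.19 CPM on the same scale. The ratio of Hif1a to Epas1 was above 1 in each of the 8 libraries, at 2.66 to 5.49 in BMPR2 DELX and 2.59 to 4.18 in ROSA. The log2 ratio differed between the groups by 0.02 ± 0.27 (exact permutation test, two-sided, p 0.89, and 0.89 adjusted over 4 ratios). With 4 samples against 4 the smallest p this test can give is 0.029.

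Among the prolyl hydroxylases, Egln3 fell in BMPR2 DELX, while Egln1 and Egln2 differed by small amounts that did not pass. Egln3 (ENSMUSG00000035105, chromosome 12, 54178981 to 54203860), the hydroxylase most strongly induced by HIF in many cells, had 38.5, 34.2, 35.3 and 40.6 CPM in ROSA 1 to 4. In BMPR2 DELX 1 to 4 it had 20.9, 17.0, 21.2 and 18.1 CPM. The groups were separated by a gap wider than the range within either, and Egln3 fell by 0.95 on the log2 scale (SE 0.09, edgeR adjusted p 0.0013), or by 48.1%. The means were 19.3 ± 2.09 and 37.2 ± 2.92 CPM, from 603 to 809 and 1061 to 1411 counts per library. It passed in each of the 8 fits that left out 1 library, with log2 fold changes of -0.99 to -0.89.

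Egln1 (ENSMUSG00000031987, chromosome 8, 124908587 to 124949324), the main oxygen-sensing hydroxylase in most tissues, had 90.6, 91.7, 98.8 and 96.4 CPM in BMPR2 DELX 1 to 4. Its ROSA levels were 107, 99.7, 110 and 107 CPM in the same order. The groups were next to each other without overlap, and the difference was -0.17 ± 0.06 (edgeR adjusted p 0.098). Egln2 (ENSMUSG00000058709, chromosome 7, 27158658 to 27166802), the mainly nuclear family member, had 44.6, 50.7, 45.1 and 49.8 CPM in BMPR2 DELX 1 to 4. ROSA 1 to 4 had 57.4, 53.9, 48.5 and 47.5 CPM, overlapping the other group (-0.12 ± 0.08, edgeR adjusted p 0.35). Egln1 and Egln2 varied little among libraries of a group, with coefficients of variation of 4.10% and 6.54% in BMPR2 DELX and 4.28% and 8.99% in ROSA.

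Because the 3 hydroxylases were read in the same libraries, ratios between them do not depend on the scaling of the library. Per kilobase of exon, Egln1 was the highest of the 3 and Egln3 the lowest in both groups. Egln1 stood at 29.5 ± 1.26 CPM in ROSA, Egln2 at 18.5 ± 1.66 and Egln3 at 14.0 ± 1.10, and in BMPR2 DELX these were 26.3 ± 1.08, 17.0 ± 1.11 and 7.25 ± 0.785. The Egln3 to Egln1 ratio was 0.250 to 0.312 in BMPR2 DELX and 0.431 to 0.514 in ROSA, a log2 difference of -0.78 ± 0.09. The Egln3 to Egln2 ratio was 0.353 to 0.494 against 0.668 to 0.899, a log2 difference of -0.83 ± 0.16. Both ratios were lower in all 4 BMPR2 DELX libraries, with an exact permutation p of 0.029, the smallest possible, and 0.057 adjusted over 4 ratios. Neither passed the correction. By themselves both could not have passed it even at the smallest possible p, so the adjusted p decides nothing about them. The Egln1 to Egln2 ratio was 1.41 to 1.70 and 1.44 to 1.77, overlapping (-0.05 ± 0.10, exact permutation p 0.69, adjusted 0.89). These 4 ratios were chosen after the values of the genes were known.

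**Figure D2:**
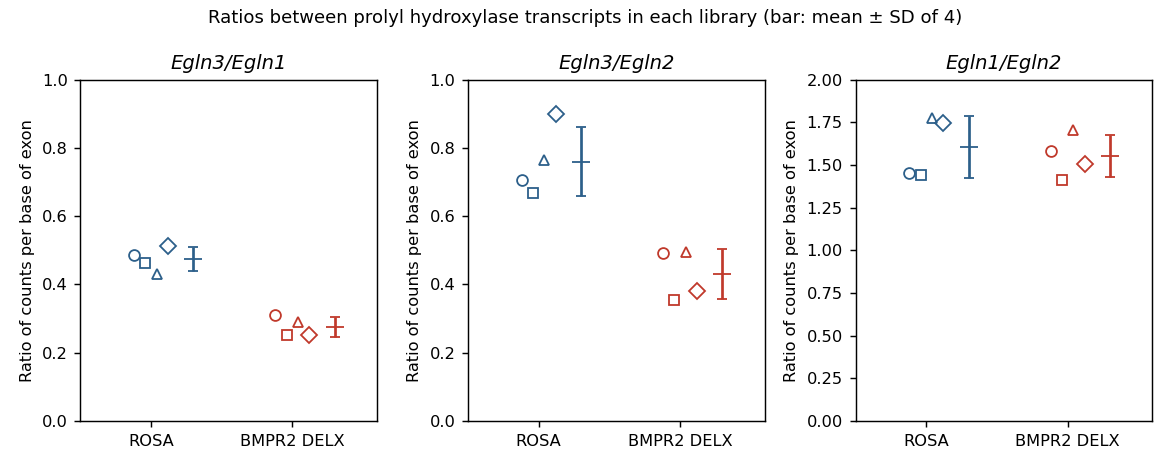
Ratios between prolyl hydroxylase transcripts (counts per base of annotated exon) in each library, with marker shapes for replicate numbers and bars for the mean ± SD of 4 libraries. Ratios with Egln3 lie lower in BMPR2 DELX (0.250 to 0.312 against 0.431 to 0.514 for Egln3 to Egln1), and Egln1 to Egln2 overlaps at 1.41 to 1.77.

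Of the HIF target genes, Ankrd37 fell, Adm was lower without passing, and Bnip3, Car9 and Ndrg1 overlapped between the groups. Ankrd37 (ENSMUSG00000050914, chromosome 8, 45996902 to 46005707), a small ankyrin repeat gene induced in hypoxia, had 1.51, 0.959, 1.17 and 0.737 CPM in BMPR2 DELX 1 to 4. ROSA 1 to 4 had 2.64, 2.52, 2.00 and 2.13 CPM. All ROSA libraries lay above all BMPR2 DELX libraries, and the gene fell by 1.10 on the log2 scale (SE 0.24, edgeR adjusted p 0.022). This rests on 33 to 46 counts per BMPR2 DELX library and 60 to 104 per ROSA library. Ankrd37 overlaps Ufsp2 and Lrp2bp on the other strand, and with unstranded counts the difference was -0.87 (edgeR adjusted p 0.055). Its call was lost without BMPR2 DELX 2 (edgeR adjusted p 0.062), without ROSA 1 (0.066) and without ROSA 2 (0.071), although the direction was kept.

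Adm (ENSMUSG00000030790, chromosome 7, 110627661 to 110629820) encodes adrenomedullin, a vasodilator peptide. It had 50.9, 56.3, 27.2 and 38.3 CPM in BMPR2 DELX 1 to 4 and 75.6, 102, 56.3 and 85.6 CPM in ROSA 1 to 4. The highest BMPR2 DELX library met the lowest ROSA library, and the other 6 were separated. The log2 fold change was -0.89 ± 0.25, from 79.9 ± 19.2 to 43.2 ± 13.0 CPM, with an edgeR adjusted p of 0.064. Adm passed in edgeR without ROSA 3 (-1.03, adjusted p 0.047), and with all libraries in DESeq2 (adjusted p 0.0019) and in limma voom (adjusted p 0.033). It also passed in edgeR with the replicate number as a block (-0.91, adjusted p 0.0048), although the numbers were not shown to pair the samples. Without ROSA 2, the highest library, the difference was -0.74 (edgeR adjusted p 0.16).

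Bnip3 (ENSMUSG00000078566, chromosome 7, 138890836 to 138909519), a mitochondrial protein that promotes mitophagy, had 37.5, 22.2, 41.9 and 26.3 CPM in BMPR2 DELX 1 to 4. ROSA 1 to 4 had 25.9, 26.2, 25.5 and 34.4 CPM, so BMPR2 DELX held both the lowest and the highest libraries (0.19 ± 0.20, edgeR adjusted p 0.58). Car9 (ENSMUSG00000028463, chromosome 4, 43506966 to 43513729), a cell surface carbonic anhydrase widely used as a hypoxia marker, was near the limit of detection. It had 10 to 29 counts per BMPR2 DELX library and 6 to 22 per ROSA library, or 0.282 to 0.648 and 0.200 to 0.534 CPM, and the groups overlapped (0.29 ± 0.39, edgeR adjusted p 0.68). With so few counts the precision of this difference was low.

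Ndrg1 (ENSMUSG00000005125, chromosome 15, 66929318 to 66969640), a stress-responsive gene strongly induced in hypoxia, was the most uneven member in BMPR2 DELX. It had 35.8, 30.1, 10.5 and 15.5 CPM in BMPR2 DELX 1 to 4 and 22.0, 28.4, 12.6 and 17.9 CPM in ROSA 1 to 4. The spread within groups, with a coefficient of variation of 52.0% and 33.1%, was larger than the difference between them (0.18 ± 0.41, edgeR adjusted p 0.82). The low libraries were those numbered 3 in both groups.

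Levels of Ndrg1 moved with a score of endothelial markers across the libraries, and less closely with a score of mesothelial markers. Each member was set against 7 marker scores, each the mean log2 CPM of its tested markers, and p-values were adjusted over all 70 relations. The endothelial score, over 15 markers such as Pecam1, Cdh5 and Kdr, was 5.89, 5.90, 4.14 and 5.21 in BMPR2 DELX 1 to 4. In ROSA 1 to 4 the score was 5.72, 5.87, 4.72 and 5.49, and the 16 markers summed to 841 to 2778 CPM in BMPR2 DELX against 1412 to 2856 in ROSA. For Ndrg1 the correlation with this score over the 8 libraries was r = 0.94 (exact permutation p 1.5e-04, adjusted 0.010) and rho = 0.98 (exact permutation p 4.0e-04, adjusted 0.028). It was r = 0.94 without BMPR2 DELX 3 and ROSA 3, which lay farthest from the median score. Not all 15 endothelial markers followed the score. Flt1 had 93.7 CPM in BMPR2 DELX 3, where the score was lowest, against 65.0 to 79.7 CPM in the others of its group. In ROSA, Flt1 was lowest in ROSA 3, at 99.4 CPM. Vwf, with 14 to 34 counts per BMPR2 DELX library, was highest in BMPR2 DELX 4. The mesothelial score covered 7 markers such as Msln and Wt1. With it Ndrg1 had r = 0.88 (exact permutation p 0.0056, adjusted 0.098) and rho = 0.79 (exact permutation p 0.028, adjusted 0.23). Without BMPR2 DELX 3 and BMPR2 DELX 4, r was 0.79. Not all 7 markers followed this score. Wt1 was highest, at 62.4 CPM, in BMPR2 DELX 3, where the score was lowest at 0.678. Some markers had few counts, such as Upk3b with 1 to 38 per BMPR2 DELX library and 0 to 16 per ROSA library.

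Neither Epas1 nor Adm had a relation that passed the adjustment. Epas1 had r = 0.84 and rho = 0.79 with the endothelial score (exact permutation p 0.021 and 0.028, adjusted 0.17 and 0.23), and r = 0.53 without BMPR2 DELX 3 and ROSA 3. With the mesothelial score Epas1 had r = 0.77 and rho = 0.55 (exact permutation p 0.044 and 0.17, adjusted 0.28 and 0.51), and r = 0.76 without BMPR2 DELX 3 and BMPR2 DELX 4. Adm was closer to the mesothelial score, with r = 0.82 and rho = 0.76 (exact permutation p 0.017 and 0.037, adjusted 0.17 and 0.23), though r was 0.44 without BMPR2 DELX 3 and BMPR2 DELX 4. With the macrophage score Adm had r = -0.75 and rho = -0.90 (exact permutation p 0.028 and 0.0046, adjusted 0.20 and 0.11), and r = -0.70 without BMPR2 DELX 3 and ROSA 1. With the endothelial score Adm had r = 0.70 and rho = 0.48 (exact permutation p 0.071 and 0.24, adjusted 0.33 and 0.55), and r = 0.41 without BMPR2 DELX 3 and ROSA 3.

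Egln3 had r = 0.06 and rho = -0.33 with the endothelial score (exact permutation p 0.86 and 0.43, adjusted 0.92 and 0.75). With the adipocyte score Egln3 had r = -0.74 and rho = -0.83 (exact permutation p 0.022 and 0.015, adjusted 0.17 and 0.22). Without BMPR2 DELX 4 and ROSA 1, this r was -0.69. Neither relation of Egln3 passed. Besides Ndrg1, 2 members had a Pearson correlation that passed, and neither passed by rank. Ankrd37 had r = -0.86 and rho = -0.90 with the adipocyte score (exact permutation p 0.0014 and 0.0046, adjusted 0.041 and 0.11), and r = -0.76 without BMPR2 DELX 4 and ROSA 1. The adipocyte score rested on 3 markers, which differed in direction between the groups. Lpl differed by 0.58 ± 0.13 (edgeR adjusted p 0.024), Pparg by 0.44 ± 0.14 (adjusted p 0.086) and Fabp4 by -0.29 ± 0.19 (adjusted p 0.37). Over these 3 the score was 5.85 to 6.08 in BMPR2 DELX and 5.49 to 5.83 in ROSA without overlap. For Ankrd37 and Egln3, the relation to this score and the difference between the groups therefore cannot be told apart. Egln2 had r = -0.94 and rho = -0.81 with the macrophage score (exact permutation p 0.0017 and 0.022, adjusted 0.041 and 0.23), and r = -0.87 without BMPR2 DELX 3 and ROSA 1. The macrophage score covered 5 tested markers of 12, and 8 of the 12 stayed under 1 CPM in every library. It was 1.59 to 2.74 in BMPR2 DELX and 0.455 to 1.84 in ROSA. For Egln2 and Adm, the relation to the macrophage score and the difference between the groups cannot be fully told apart. Groups of 4 are too few for a correlation within each, and the part of these cell types in the levels of the members was not tested.

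**Figure D3:**
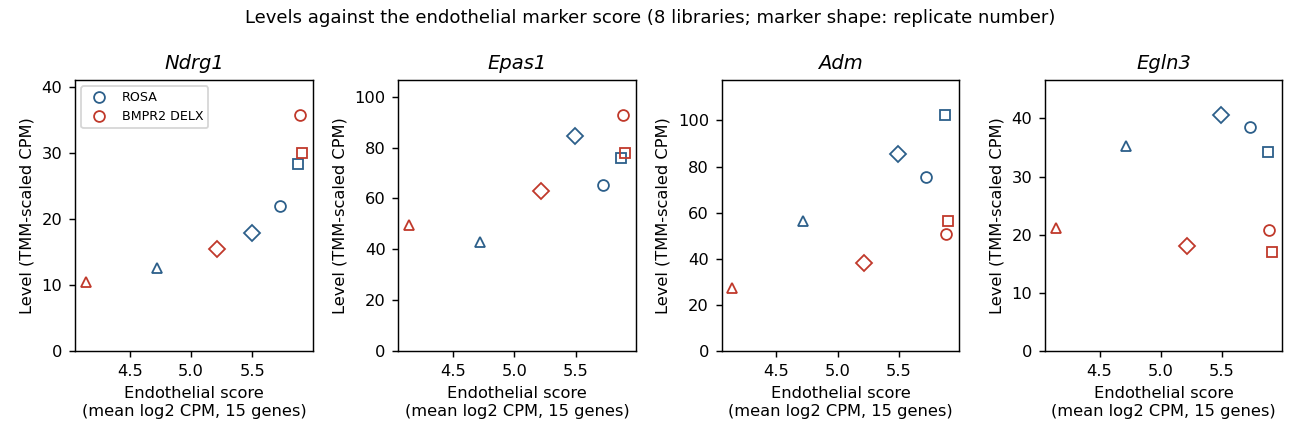
Levels of Ndrg1, Epas1, Adm and Egln3 (TMM-scaled CPM) against the endothelial score (mean log2 CPM of 15 markers) in 8 libraries, with ROSA in blue and BMPR2 DELX in red and marker shapes for replicate numbers. Over the 8 libraries Ndrg1 runs from 10.5 CPM at the lowest score to 35.8 CPM near the highest, whereas Egln3 lies at 17.0 to 21.2 CPM in the 4 BMPR2 DELX libraries.

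Without the libraries lowest in the endothelial score, BMPR2 DELX 3 and ROSA 3, Egln3 differed by -1.02 ± 0.11 (edgeR adjusted p 0.0063) and Adm by -0.86 ± 0.16 (edgeR adjusted p 0.027). Ankrd37 differed by -1.21 ± 0.29 in that fit (edgeR adjusted p 0.055). Immediate early genes, which respond to handling and growth signals, stood high in 2 controls. Their score over 20 genes was 6.46 in ROSA 1 and 6.69 in ROSA 2, 5.04 and 4.94 in ROSA 3 and ROSA 4, and 4.59 to 4.85 in BMPR2 DELX. Ankrd37 was highest in ROSA 1 and ROSA 2, whereas Egln3 was highest in ROSA 4 and ROSA 1. Without ROSA 1 and ROSA 2, Egln3 differed by -0.96 ± 0.12 (edgeR adjusted p 0.018), Ankrd37 by -0.91 ± 0.30 (adjusted p 0.19) and Adm by -0.70 ± 0.31 (adjusted p 0.34). The part of these genes in the differences of Ankrd37 and Adm was not tested.

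Receptors for adrenomedullin did not pass in either direction. Of 9 genes of the adrenomedullin system 6 were tested, and 0 were called by edgeR, DESeq2 or limma voom. These called 9.10%, 14.3% and 11.0% of all genes, so 0 calls among only 6 genes tell little about the list. At an unadjusted edgeR p below 0.05 there were also 0, where 12.9% of all genes were higher and 13.4% lower. Calcrl, the receptor, had 16.9 ± 6.26 CPM in BMPR2 DELX against 20.5 ± 3.94 in ROSA (-0.28 ± 0.25, edgeR adjusted p 0.51). Its partner Ramp2, which makes it an adrenomedullin receptor, had 14.7 ± 7.09 and 11.4 ± 5.16 CPM (0.37 ± 0.50, edgeR adjusted p 0.69). Ramp3, the other partner with that role, had 3.43 ± 1.30 and 6.92 ± 4.35 CPM (-1.02 ± 0.46, edgeR adjusted p 0.20), with 12.9 CPM in ROSA 1 and 1.88 to 7.38 CPM in the other 7 libraries. Without ROSA 1 the Ramp3 difference was -0.52 (edgeR adjusted p 0.45), and without ROSA 1 and ROSA 2 it was -0.10 (adjusted p 0.92). The scavenger receptor Ackr3 had 27.2 ± 6.34 and 25.6 ± 3.93 CPM (0.09 ± 0.17, adjusted p 0.78). Among 14 tested genes that share a name stem with Ndrg1, Bnip3 or Car9, 1 was called, as higher, and 13 were not. That is 7.14% called, against 9.10% of all genes. None (0) of the 14 was lower at an unadjusted edgeR p below 0.05, where 13.4% of all genes were. DESeq2 and limma voom likewise called 0 lower. Car11, a carbonic anhydrase-related protein, rose from 1.62 ± 0.415 to 3.27 ± 0.711 CPM (1.02 ± 0.23, edgeR adjusted p 0.025). Its call was lost without BMPR2 DELX 2 (edgeR adjusted p 0.054), BMPR2 DELX 4 (0.059), ROSA 1 (0.066) or ROSA 2 (0.075). Bnip3l, the mitophagy receptor closest to Bnip3, differed by -0.13 ± 0.08 (edgeR adjusted p 0.32), and Bnip1 by 0.23 ± 0.08 (adjusted p 0.099). Car8 was uneven, at 31.9 ± 19.2 and 16.8 ± 6.69 CPM (0.92 ± 0.53, edgeR adjusted p 0.31), with its lowest libraries again BMPR2 DELX 3 and ROSA 3. Without BMPR2 DELX 2, its highest library, the Car8 difference was 0.54 (edgeR adjusted p 0.58).

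By edgeR, the other genes of the pathway were called no more often than genes in general. Of 78 tested in 3 lists, 2 were called higher and 3 lower, leaving 73, or 6.41% called against 9.10% of all genes. The median log2 fold change of the 78 was -0.06, against 0.005 over all genes. Of the 78, 7 were higher (8.97%) and 18 lower (23.1%) at an unadjusted edgeR p below 0.05. Among all genes these shares were 12.9% and 13.4%. The groups did not overlap for 12 lower and 6 higher genes of the 78. For lower genes this share was above the 9.65% of all genes, and for higher genes it was below their 8.32%. DESeq2 called 12 genes of these lists in either direction, where it called 14.3% of all genes. In the list of HIF machinery, 1 of 18 was lower, 0 were higher (1 at an unadjusted edgeR p below 0.05, 1 by DESeq2, 0 by limma voom) and the median was -0.03. Cited2, which competes with HIF for its coactivator and is itself a HIF target, fell by 0.56 ± 0.12 (edgeR adjusted p 0.022), from 252 ± 35.9 to 171 ± 23.0 CPM. Its call was lost without BMPR2 DELX 2 (edgeR adjusted p 0.059), BMPR2 DELX 3 (0.051) or ROSA 2 (0.071). The transmembrane prolyl hydroxylase P4htm differed by 0.39 ± 0.13 (edgeR adjusted p 0.088), the deubiquitinase Usp20 by -0.26 ± 0.10 (adjusted p 0.14) and the ubiquitin ligase Siah2 by -0.25 ± 0.10 (adjusted p 0.16).

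Of the 23 glycolytic targets, 0 were called by edgeR or limma voom, with 2 lower by DESeq2. At an unadjusted edgeR p below 0.05, 3 were higher (13.0%) and 5 lower (21.7%), against 12.9% and 13.4% of all genes. Their median was -0.07. The regulators of glycolytic flux Pfkfb3 and Pfkfb4 differed by -0.26 ± 0.08 and -0.53 ± 0.18 (edgeR adjusted p 0.073 and 0.095). Without ROSA 4 Pfkfb4 passed (-0.67, edgeR adjusted p 0.023). The MYC antagonist Mxi1 differed by 0.35 ± 0.12 (edgeR adjusted p 0.099) and passed without BMPR2 DELX 3 (0.44, adjusted p 0.036), and the triose phosphate isomerase gene Tpi1 differed by 0.17 ± 0.06 (adjusted p 0.11).

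Of 39 other targets 37 were tested, with 2 called higher, 2 called lower and a median of -0.08 over all 37. With an unadjusted edgeR p below 0.05 there were 3 higher (8.11%) and 10 lower (27.0%), against 12.9% and 13.4% of all genes. DESeq2 called 3 higher and 5 lower, and limma voom 2 and 3, where they called 14.3% and 11.0% of all genes in either direction. Angptl4, a secreted inhibitor of lipoprotein lipase that also responds to PPAR receptors, fell by 1.05 ± 0.10 (edgeR adjusted p 0.0013), from 56.9 ± 7.83 to 27.5 ± 1.63 CPM. Its libraries ran from 25.3 to 29.2 CPM in BMPR2 DELX and from 48.0 to 66.8 CPM in ROSA, and it passed in each of the 8 fits without 1 library. The transferrin receptor gene Tfrc fell by 0.55 ± 0.11 (edgeR adjusted p 0.018), from 122 ± 6.95 to 83.6 ± 13.9 CPM, and lost the call without ROSA 1 (0.053) or ROSA 2 (0.057). The histone demethylase gene Kdm4b rose by 0.38 ± 0.08 (edgeR adjusted p 0.022) to 26.1 ± 0.648 CPM and lost the call without BMPR2 DELX 2 (0.059) or ROSA 2 (0.068). The zinc finger gene Zfp395 rose by 0.81 ± 0.19 (edgeR adjusted p 0.030) to 7.54 ± 1.42 CPM, and lost the call in 6 of 8 fits without 1 library, with edgeR adjusted p of up to 0.078.

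**Figure D4:**
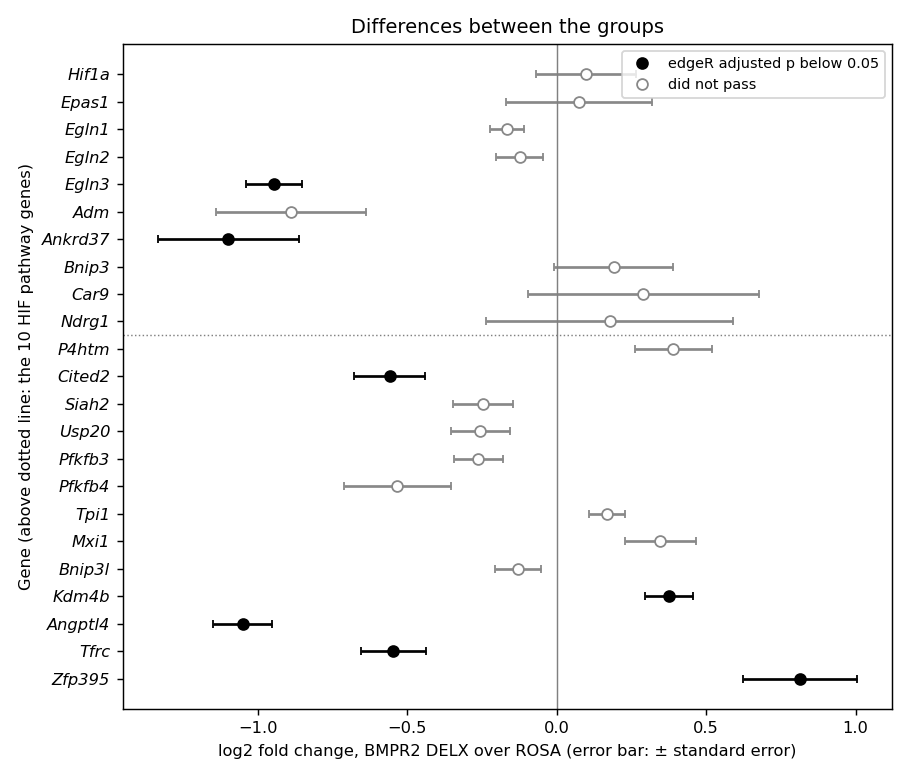
Log2 fold change of BMPR2 DELX over ROSA with its standard error for the 10 HIF pathway genes (above the dotted line) and for named genes of the other lists, filled where the edgeR adjusted p was below 0.05. Egln3 at -0.95 and Angptl4 at -1.05 combine a large difference with a small error, and Ndrg1 and Car9 have wide errors around 0.18 and 0.29.

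Likeness of pattern was measured after the group mean had been taken off each library, over 8 libraries and 8752 genes with a mean of at least 10 CPM. The libraries differed in depth and in the sums of cell type markers, so the coefficients describe these libraries only. The genes named were picked as the closest of the 8752 searched, and the coefficients were not tested against that choice. Hif1a was closest to Spata13 (r = 0.97), Morf4l2 (0.96) and Dnm1l (0.96), and Epas1 to Arhgap28 (0.97), Adgrg3 (0.97) and Tmem159 (0.96). Egln3 was closest to Ctnnd1 (0.97), Uba6 (0.96) and Slc25a51 (0.94), and Ankrd37 to Sept10 (0.99), Atrx (0.98) and Ppp6r3 (0.97). None (0) of these 12 genes was called between the groups by edgeR, where 9.10% of all genes were, and their log2 fold changes were -0.13 to 0.25.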

How the data were processed

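Polyadenylated RNA of 8 samples was sequenced. The deposited counts per gene are raw counts in the layout of STAR (2.5.2b, per the submitters' processing notes, which also name HTSeq); the count column of 1 strand, column 4, was used, and reads not assigned to genes (14.7% to 22.0%) were left out. Identifiers were matched to GENCODE M21 (GRCm38) for 49412 of 49671 genes. Genes were filtered by filterByExpr, scaled by TMM and tested with edgeR 4.0.16 (quasi-likelihood, robust) in R 4.3.3, all 8 libraries in 1 fit of group. DESeq2 1.42.0 and limma voom 3.58.1 (with quality weights) were alternatives, along with other scaling, filters, the unstranded column, a replicate block and leaving out libraries. Levels between genes were divided by the union of annotated exons. A count of 0 allows up to 3 counts, 0.0687 to 0.104 CPM, for counting error only. The fit was tested on simulated data. It called 33 of 67 genes with a planted log2 change of 0.5, 57 of 67 at 1 and 65 of 66 at 2. Of its calls, 3.73% were genes left unchanged. Changes near 0.5 were thus often missed in the simulation.

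The members and lists were chosen with earlier results of these data known. Beyond the members, up to 4 genes a list were named by smallest p, and 3 genes by likeness of pattern for Hif1a, Epas1 and each called member. Scores are means of log2 CPM with a prior count of 2. Other marker lists summed, in BMPR2 DELX and ROSA, to 252 to 308 and 201 to 234 CPM (adipocyte), 37.8 to 71.6 and 25.1 to 37.2 CPM (macrophage), 23.5 to 62.0 and 33.0 to 49.6 CPM (epithelial) and 69.3 to 83.3 and 90.4 to 134 CPM (mesothelial). Calls of these lists are given for edgeR, DESeq2 and limma voom in that order. Higher were 1, 2 and 1 adipocyte markers, 1, 1 and 1 fibroblast and contractile, 1, 4 and 1 macrophage, 2, 3 and 0 epithelial, and 0, 1 and 0 endothelial. Lower were 0, 1 and 1 epithelial, 0, 1 and 1 endothelial and 1, 2 and 2 mesothelial markers, and 4, 10 and 4 immediate early genes. At an unadjusted edgeR p below 0.05, 0 endothelial markers were higher and 1 lower. Exact permutation tests were run with scipy 1.17.1.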

Additional observations from a re-analysis of the deposited data

Results flagged for a closer look

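In 60 groups of 4 libraries, 3 had 1 library far from the others, and chance gives about 1 in 20. Bnip3 had 34.4 CPM in ROSA 4, against 25.5 to 26.2 CPM in the other ROSA libraries. Usp20 had 16.0 CPM in BMPR2 DELX 1, against 19.9 to 20.5 CPM in the others of its group. Tfrc had 112 CPM in ROSA 4, against 125 to 126 CPM in the other ROSA libraries.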

How the results depend on the processing

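Egln3 and Angptl4 passed under each of the 18 alternatives, with log2 fold changes of -1.02 to -0.89 and -1.13 to -0.93. Over all genes, 1355 were called. Leaving out 1 library in turn gave 477 to 1266 calls (213 to 545 higher, 264 to 721 lower), the fewest without ROSA 2, with 1 to 3 of the members and 2 to 8 other HIF genes. Without ROSA 1 and ROSA 2, 172 genes were called (64 higher, 108 lower), with 1 member and 2 other HIF genes. Without BMPR2 DELX 3 and ROSA 3 the counts were 631 (222 higher, 409 lower) and 2 other HIF genes. DESeq2 called 2268 (1082 higher, 1186 lower), with 12 other HIF genes, and the unstranded column gave 1 member. With upper-quartile scaling 54.8% of calls were higher, against 43.5% with TMM. The sign turned for Hif1a (-0.071) and Bnip3 (-0.0085) without BMPR2 DELX 3 and ROSA 3, for Egln2 (0.0016) without ROSA 1 and ROSA 2 and for Ndrg1 (-0.070) in limma voom. With 1 library left out, values ran from -0.024 to 0.20 for Hif1a, -0.088 to 0.21 for Epas1, -0.11 to 0.42 for Ndrg1 and -0.055 to 0.21 for Ackr3, and without a change of sign from -1.27 to -0.52 for Ramp3, 0.10 to 0.66 for Ramp2, -0.52 to -0.14 for Calcrl and 0.54 to 1.22 for Car8. Same-numbered libraries correlated at 0.005 to 0.245 in their deviations, not all above 0.1, and differently numbered ones at -0.244 to 0.179. The numbers were not taken as pairs in the main fit, and a batch shared by number was not tested. With a replicate block 1245 genes were called (563 higher, 682 lower), 3 of them members and 7 other HIF genes. In that fit Adm passed (-0.91, edgeR adjusted p 0.0048), as did Car8 (0.79, adjusted p 0.037), and Zfp395 did not (0.82, adjusted p 0.056). Where these values moved, the cause was not tested. Car9 and Ankrd37 had the fewest counts of the members, 6 to 29 and 33 to 104 per library.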
